A study of Mus musculus with 9 samples.

Results

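The comparison set 3 livers of mouse embryos at day 17.5 against 3 livers of adult male mice aged 2 months, which are 6 of the 9 samples in the series. They were taken by their titles, and each sample had 1 array. The sources used here do not give the sex of the embryos, the strain or any pooling of animals, and age is the only labelled difference. The labels call the replicates of each group independent without naming animals or litters, so every p-value rests on the spread among 6 samples, which may be technical. By its title, the series is a profile of long non-coding RNA, with liver cancer as its remaining group.

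Before birth the liver is both a developing metabolic organ and the main site of blood formation, where red cell precursors divide and take up iron for haemoglobin. After birth blood formation moves to the bone marrow, and hepatocytes take on the metabolic work of the mature organ, such as the synthesis of glucose and the use of glycerol. Long intergenic non-coding RNAs (lincRNAs) are transcripts that lie between protein-coding genes and encode no protein. In bulk RNA from a whole organ, fewer cells of a type and less RNA per cell cannot be told apart.

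The arrays carried 60915 probes after control spots were set aside. Only 15 of these were named by a gene accession, and 1836 had lincRNA names. The remaining probes carried identifiers of the array maker, which the files do not pair with genes. Of the defining markers of liver cell types and blood cells, Tfrc alone was named, so the labels of the tissues could not be checked against hepatocyte or blood cell markers. Levels are given as log2 processed signal relative to the 75th percentile of the same array, so a level of 0 is the signal of that percentile, and a difference of 1 is 2-fold.

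Testing was limited to probes that the scanner software marked well above background on all 3 arrays of at least one group, which held for 28519 (46.8% of those on the array). It was called at a limma adjusted p below 0.05 together with a difference of at least 2-fold. Of the tested probes 12766 were called, which is a background of 44.8%, with 6987 higher in fetal liver (24.5%) and 5779 lower (20.3%). Without the fold minimum, 66.5% passed the adjusted p. Fetal and adult arrays lay wholly apart on 71.8% of tested probes, and the median difference over all of them was 0.01. Arrays of one group correlated at 0.988 or above in fetal liver and 0.982 or above in adult liver across tested probes, against 0.742 to 0.755 between the groups. Probes are not independent replicates, so these correlations are descriptions. A code in the scanner header, read here as array position, divides the 6 arrays into 2 groups. The first of these holds the 3 fetal arrays and adult replicate 1. With this position as a block, where the difference rests on adult replicate 1 alone, 12858 probes were called.

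**Figure D1:**
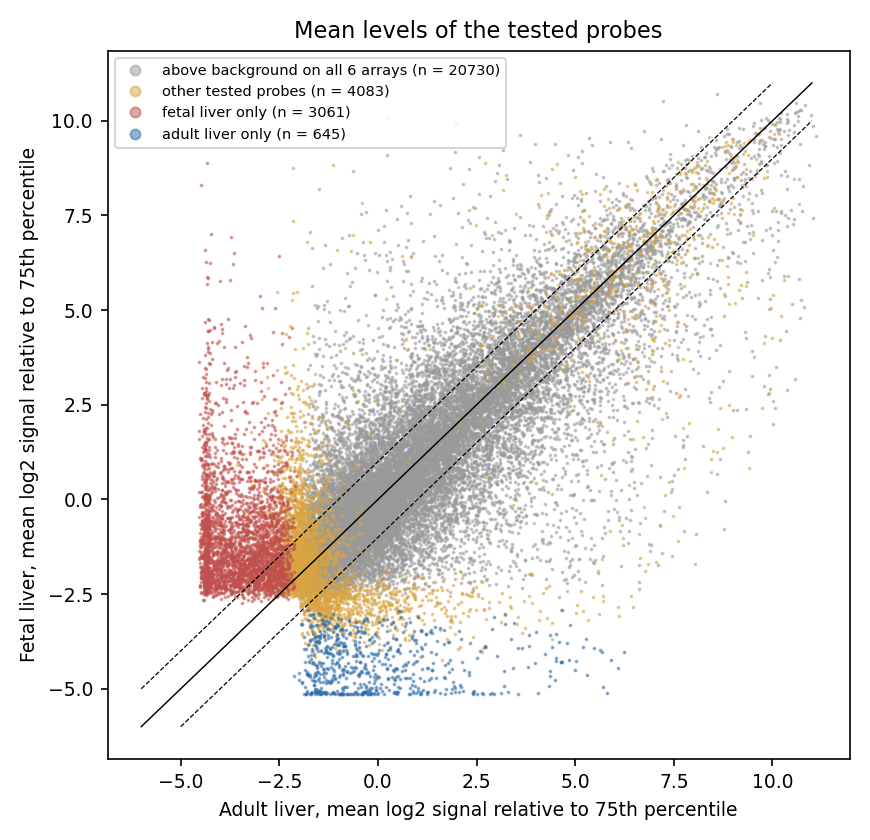
Mean level of each tested probe in adult liver (x axis) and fetal liver (y axis), in log2 relative to each array's 75th percentile, with the solid line at equal levels and dashed lines at 2-fold. Grey points (20730) were above background on all 6 arrays, red points (3061) in fetal liver only, blue points (645) in adult liver only, and ochre points (4083) are the other tested probes. Red and blue points lie along the lower limits of the adult and fetal signals.

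Fetal liver had higher levels of 8 named genes and lower levels of 3, while the other 4 of the 15 were not called, so 11 of 15 were called. The background was 44.8% over all tested probes and 37.0% over probes above background on all 6 arrays. All 15 were above background on all 6 arrays, so their differences are estimates on both sides and not bounds. Each gene had 20 spots on an array, and after spots marked as outliers were left out, 10 to 20 remained. The SD over these spots ranged from 0.04 to 0.46 log2, with the widest values in Ldhal6b and Gk, which were dim in fetal liver.

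Genes of the cytoskeleton were higher in fetal liver. Tuba1b, an alpha-tubulin from which microtubules are built, stood at 10.57, 10.31 and 10.70 on the fetal arrays and at 7.35, 7.20 and 7.11 on the adult arrays. The groups lay far apart, with a difference of 3.31 ± 0.15 (SE, n = 3 per group; limma adjusted p = 2.64e-06), the largest rise among the named genes. Actb, the cytoplasmic actin of microfilaments, measured 8.90, 8.62 and 9.01 in fetal liver and 7.39, 7.31 and 7.22 in adult liver. Its difference was 1.54 ± 0.14 (limma adjusted p = 7.72e-05), and no fetal array fell to the adult range.

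Tfrc, the transferrin receptor, imports iron and is most abundant on red cell precursors and dividing cells. Its level was 9.75, 9.68 and 9.79 on the fetal arrays and 6.79, 6.75 and 6.71 on the adult arrays. Both groups were tight, and the difference of 2.99 ± 0.10 (limma adjusted p = 9.77e-07) corresponds to 7.94-fold.

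The 3 named genes of transcription and translation all rose. Rpl13a, a protein of the large ribosomal subunit, measured 6.98, 6.93 and 6.94 in fetal liver against 4.95, 5.06 and 5.05 in adult liver, a difference of 1.93 ± 0.10 (limma adjusted p = 6.6e-06). Tbp, which binds the TATA box at promoters, stood at 3.90, 3.62 and 3.93 against 2.70, 2.64 and 2.55, a difference of 1.19 ± 0.13 (limma adjusted p = 0.000215). Nono, an RNA-binding protein of the nucleus, measured 7.34, 6.93 and 7.46 in fetal liver and 6.33, 6.17 and 6.08 in adult liver. Of these 3, Nono lay nearest to the 2-fold minimum, at 1.05 ± 0.17 (limma adjusted p = 0.00137), and it fell under that minimum in 5 of 21 alternatives. It was at 0.94 without fetal replicate 3, at 0.996 without adult replicate 3 and at 0.91 with array position as a block.

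Among genes of protein folding, Hsp90ab1, a cytosolic chaperone, was at 7.49, 7.27 and 7.53 in fetal liver and at 6.33, 6.37 and 6.32 in adult liver. The groups did not overlap, and the difference was 1.09 ± 0.12 (limma adjusted p = 0.00019). Ppia, a proline isomerase that assists folding, was at 10.15, 9.86 and 10.21 against 10.19, 10.16 and 10.16. Its groups overlapped, and the difference of -0.10 had a 95% interval of -0.41 to 0.21.

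Genes of sugar and glycerol metabolism moved in both directions. Gk, glycerol kinase, which prepares glycerol for glucose and lipid synthesis, was at -0.82, -0.60 and -0.91 on the fetal arrays and at 2.62, 2.66 and 2.75 on the adult arrays. This was the largest fall among the named genes, at -3.45 ± 0.13 (limma adjusted p = 1.17e-06). With normexp, another background correction that shrinks differences of dim probes, Gk was at -2.15, still past the threshold. G6pd2, a relative of the glucose-6-phosphate dehydrogenase that opens the pentose phosphate pathway, went the other way, with 2.19, 2.05 and 2.25 in fetal liver and -0.29, -0.36 and -0.46 in adult liver. Its difference was 2.53 ± 0.12 (limma adjusted p = 3.2e-06), and 1.65 with normexp.

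Ldhal6b, a gene related to lactate dehydrogenase, was at -2.34, -2.43 and -2.44 in fetal liver and at 0.21, 0.04 and -0.35 in adult liver. The fetal values were close to the lowest signals that count as above background, and the adult arrays spread more widely than for any other named gene (SD 0.29). The difference was -2.37 ± 0.16 (limma adjusted p = 2.1e-05), but -0.78 with normexp, where it was not called. Gapdh, the glycolytic glyceraldehyde phosphate dehydrogenase, measured 10.32, 10.03 and 10.38 in fetal liver and 10.61, 10.59 and 10.59 in adult liver. The fetal arrays lay below the adult arrays by -0.36 (95% interval -0.67 to -0.04; limma adjusted p = 0.0473), under the 2-fold minimum. Under quantile normalization the sign of Gapdh turned (0.18), as did that of Ppia (0.46).

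B2m, the light chain of the class I molecules that present antigen to T cells, was at 8.70, 8.62 and 8.70 in fetal liver and at 10.33, 10.30 and 10.32 in adult liver. It fell by 1.64 on the log2 scale (SE 0.10; limma adjusted p = 1.24e-05), and both groups were tight. Hprt, an enzyme of purine salvage, was at 8.79, 8.72 and 8.81 against 8.40, 8.37 and 8.38. The groups did not overlap, but the difference of 0.39 (95% interval 0.15 to 0.64; limma adjusted p = 0.0128) is under the 2-fold minimum. Gusb, the lysosomal beta-glucuronidase, was at 4.22, 4.16 and 4.29 in fetal liver and at 4.06, 4.11 and 4.03 in adult liver, a difference of 0.15 (95% interval -0.10 to 0.41; limma adjusted p = 0.239).

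**Figure D2:**
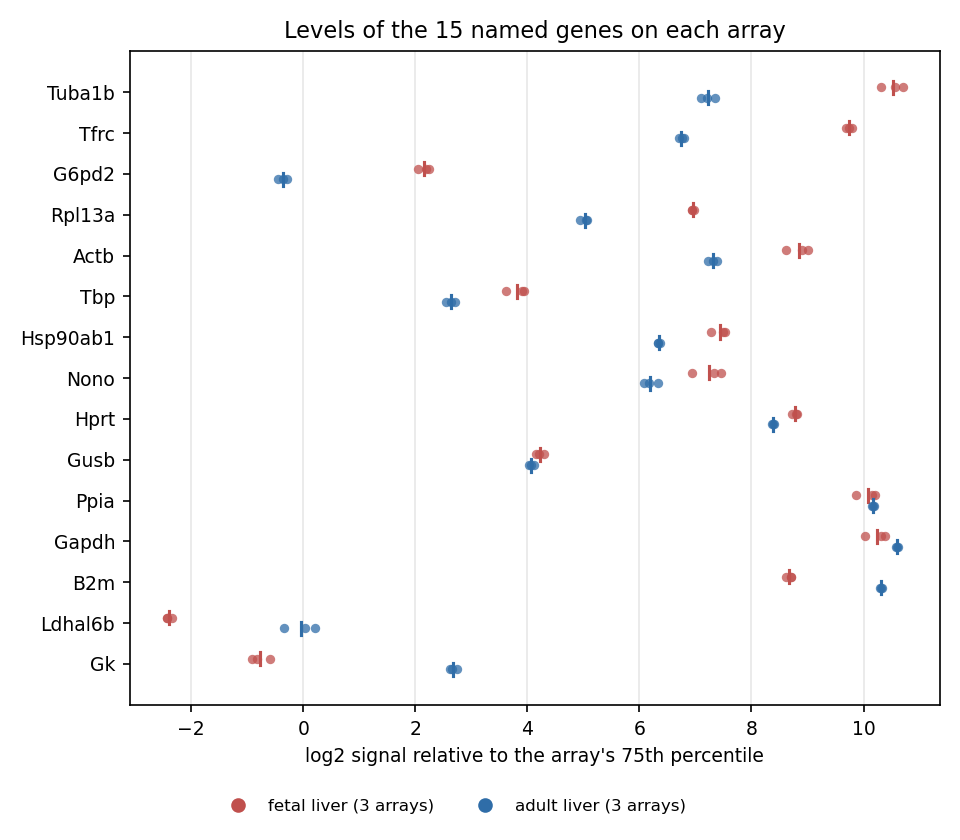
Level of each named gene on each array in log2 relative to the array's 75th percentile (x axis), with genes ordered by difference (y axis), 1 point per array and a tick at each group mean. Groups lie apart for 14 of the 15 genes and overlap for Ppia, and the distance runs from 3.31 in Tuba1b to -3.45 in Gk.

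The 8 genes listed as common reference genes (Actb, Tuba1b, Gapdh, Hprt, Gusb, Ppia, Hsp90ab1 and B2m) thus held 3 that rose, 1 that fell and 4 not called. Members of gene families with near-identical copies, among them Tuba1b, Actb, Rpl13a, Gapdh, Ppia, Hsp90ab1, G6pd2 and Ldhal6b, are uncertain, because probe sequences were not used here and signal shared with copies was not separated.

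Control spots gave further probes for Gapdh and Pgk1, the latter the glycolytic phosphoglycerate kinase. The control named Mouse-GAPDH_3 was lower in fetal liver, at 9.90, 9.65 and 9.96 against 10.14, 10.14 and 10.10. Mouse-GAPDH_5 was at 9.11, 8.93 and 9.19 against 8.98, 8.91 and 8.91, so the mean differences of these probes had opposite signs (-0.29 and 0.14). Within an array, the Gapdh control ending in 5 lay below the one ending in 3 by -0.76 ± 0.03 (SD, n = 3) in fetal liver and by -1.20 ± 0.03 in adult liver. For Pgk1 the same differences were -4.74 ± 0.08 and -5.07 ± 0.04. Neither pair of groups overlapped, and each had a two-sided exact permutation p = 0.1, the smallest that 3 arrays against 3 allow (0.129 adjusted over 9 such values). Such pairs serve to check RNA quality along a transcript, and their part in the gene differences was not tested.

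Many probes were measured on both sides, and these changes were graded. Of the 20730 probes above background on all 6 arrays, 7670 were called (37.0%), with 3562 higher (17.2%) and 4108 lower (19.8%) in fetal liver. At least 4-fold changes numbered 1295 higher and 1674 lower, and at least 16-fold changes 226 and 346. Lower probes therefore outnumbered higher ones at each of these sizes, whereas over all tested probes the higher ones were more numerous. That majority was not kept under each alternative: with no filter 7902 were higher and 8471 lower, with dim signals raised to each array's limit 5707 and 5723, and with normexp 2969 and 3126. Alternatives that kept it included dim signals raised to 1 level for all arrays (5542 and 5179), array median scaling (6739 and 6028) and quantile normalization (7015 and 5785). The median difference of graded probes was -0.13.

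The largest graded rise was that of probe ASMM10P031980, at 9.55, 9.53 and 9.80 on the fetal arrays and at -0.55, -0.91 and -0.80 on the adult arrays. It moved from among the brightest signals to one under the 75th percentile (10.38 ± 0.15; limma adjusted p = 9.6e-08). ASMM10P036634 followed with 10.08, 10.03 and 10.12 against 0.08, 0.41 and 0.27, a difference of 9.82 ± 0.13. In the other direction, ASMM10P050400 was at -0.67, -0.83 and -0.87 in fetal liver and at 8.86, 8.72 and 8.70 in adult liver, a difference of -9.55 ± 0.12. ASMM10P028947 was at -0.98, -1.14 and -0.59 against 8.09, 8.16 and 7.97 (-8.98 ± 0.17). With normexp each of these 4 kept its direction and its call. The sources used here do not pair these probes with genes.

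Other probes were switched, meaning well above background on all 3 arrays of one group and on no array of the other. There were 3061 such probes for fetal liver and 645 for adult liver. The mark was set against each array's own limit, so these counts are a description. Of the fetal-only probes 2815 had groups that lay apart (92.0%) and 2551 were called (83.3%), and all 645 adult-only probes met both. Over all tested probes these shares were 71.8% and 44.8%. A switched probe passes the filter only through its bright group. Its separation and its call are therefore largely fixed beforehand and lend no support. A further 4083 tested probes, 1900 of them called, were neither graded nor switched, being marked on part of a group's arrays or lacking a usable spot. Because the dim side has no measured level, its fold is a lower bound, taken against each dim array's lowest accepted signal, or the probe's own where that was higher. The bound exceeded 1-fold for 2685 of the 3061 fetal probes and for all adult ones. A bound of at least 2-fold was reached by 1355 fetal and 632 adult probes, at least 4-fold by 645 and 379, at least 8-fold by 328 and 227, and at least 16-fold by 171 and 122. The median bound was 1.76-fold for fetal probes and 5.19-fold for adult ones. The largest bounds were 2194-fold in fetal liver and 536-fold in adult liver, both at probes without a gene name. The former was at 8.87, 8.87 and 8.91 on the fetal arrays and the latter at 6.46, 6.13 and 6.08 on the adult arrays.

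The excess of fetal probes moved with the background limit of the arrays. Probes well above background made up 46.1%, 54.8% and 47.3% on the fetal arrays and 40.5%, 42.8% and 41.9% on the adult arrays (two-sided exact permutation p = 0.1, the smallest possible; 0.129 adjusted over 9 values). The lowest signal that counted as well above background lay at -2.57, -3.27 and -2.69 on the fetal arrays and at -2.09, -2.31 and -2.25 on the adult arrays. When -2.09, the highest of these 6 limits, was applied to all arrays, 2141 probes were fetal only and 1535 adult only. Fetal replicate 2 had the lowest limit, and without it 3084 probes were fetal only and 1087 adult only. What part of the excess comes from transcripts and what part from the limits was not tested.

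**Figure D3:**
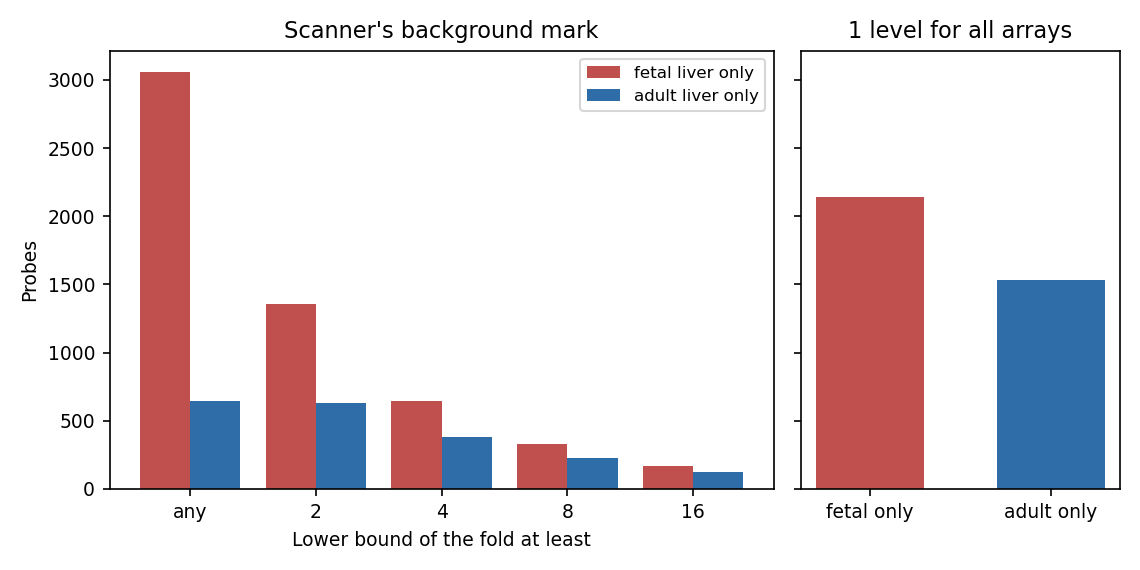
Number of probes (y axis, from 0) above background in one group only, with red bars for fetal liver and blue bars for adult liver. The left panel uses the scanner's mark and requires a growing lower bound of the fold (x axis), and the right panel uses 1 background level on all arrays, where the counts are 2141 and 1535 in place of 3061 and 645.

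Probes with lincRNA names were detected less often than the others and those called were mostly lower in fetal liver. Of 1836 such probes 351 were tested (19.1%, against 46.8% of all probes), and 17 were higher (4.84%) and 81 lower (23.1%). The backgrounds over all tested probes were 24.5% and 20.3%. Their median difference was -0.31, against 0.01 over all tested probes. Among the 252 measured on all 6 arrays, 8 were higher (3.17%) and 55 lower (21.8%), beside 17.2% and 19.8% of all graded probes. Raising dim signals to the background limit left 14 higher and 81 lower, beside 5707 and 5723 over all probes. Normexp, which shrinks dim probes, left 7 and 20, beside 2969 and 3126. It cut the calls from 98 to 27 among lincRNA-named probes and from 12766 to 6095 over all.

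All 3 name classes had this split. Probes named humanlincRNA had 11 higher (5.53%) and 46 lower (23.1%) of 199 tested, and those named mouselincRNA 5 (3.94%) and 30 (23.6%) of 127. Those named for mm9 lincRNA exons had 1 (4%) and 5 (20%) of 25. The backgrounds were 24.5% and 20.3%, so each class had a smaller share of higher probes and a share of lower ones close to the background. Most lincRNA-named probes were dim: 232 of the 351 lay below the median level of all tested probes, with 9 higher (3.88%) and 62 lower (26.7%), beside 27.7% and 18.8% of all tested probes on that side. Above that median 8 were higher (6.72%) and 19 lower (15.97%) of 119, beside 21.3% and 21.8%. The share of lower probes was thus above that of all tested probes among the dim ones alone, whereas the share of higher probes was smaller on both sides. The sources used here do not explain the class names.

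**Figure D4:**
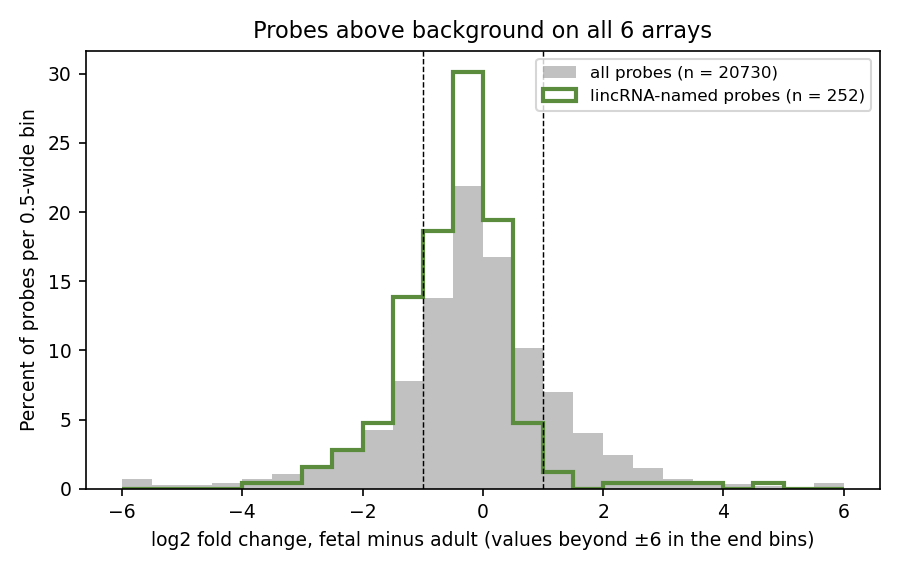
Percent of probes (y axis) by difference between fetal and adult liver in log2 (x axis), for all 20730 probes above background on all 6 arrays (grey) and the 252 of them with lincRNA names (green), with dashed lines at 2-fold and larger values gathered in the end bins. The lincRNA-named probes thin out above 1, where 3.17% were called against 17.2% of all.

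The highest lincRNA-named probe was humanlincRNA0970-_P1, with 4.22, 4.54 and 4.16 on the fetal arrays and -1.07, -0.51 and -0.31 on the adult arrays. Its difference was 4.94 ± 0.22 (limma adjusted p = 2.98e-06), the fetal arrays being tight and the adult arrays somewhat spread, and 3.43 with normexp. Next came humanlincRNA1151+_P1, at 1.91, 1.74 and 1.80 against -1.81, -1.94 and -2.14 (3.78 ± 0.13; 1.93 with normexp). humanlincRNA1963-_P1, chosen by its measured difference, was at -0.86, -0.72 and -0.996 in fetal liver and above background on no adult array. The rise was at least 2.57-fold, and normexp gave 0.69, without a call. Among the probes switched on in fetal liver, humanlincRNA0381+_P1 was at -1.15, -1.15 and -1.20, with a rise of at least 2.07-fold.

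Among mouselincRNA probes the strongest rise was that of mouselincRNA1103-_P1, at 2.95, 2.62 and 2.76 in fetal liver and -0.23, -0.30 and -0.24 in adult liver (3.03 ± 0.13; limma adjusted p = 1.99e-06). The groups were tight and far apart. mouselincRNA0052-_P1 rose by 2.02 ± 0.34, with adult replicate 3 (0.55) below the other two adult arrays (1.78 and 1.74). mouselincRNA0161-_P1 followed at 1.39 ± 0.31, resting on 2 usable fetal arrays (4.43 and 3.70). Of the mm9 exon probes only MM9LINCRNAEXON11564+_P1 was called higher, at -0.69, -0.64 and -0.83 in fetal liver and above background on no adult array, so the rise was at least 2.82-fold. Normexp gave 0.66, without a call.

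Several of the falls chosen by measured difference were against fetal signals under the background limit, which have no order. humanlincRNA1249-_P1 was above background on no fetal array and at 0.39, -1.88 and 0.48 on the adult arrays. Adult replicate 2 stood well below the other two, and the probe was at least 5.67-fold lower in fetal liver. Its call was lost with normexp (-0.91) and when all arrays were floored at 1 level (-1.75), and the measured difference of -4.06 ± 0.66 became -4.83 without adult replicate 2. humanlincRNA0323+_P1 was at -3.69, -2.61 and -2.92 against 1.29, 0.96 and 0.69, above background on 1 fetal array (-4.06 ± 0.30; -1.50 with normexp). humanlincRNA1627+_P1, below background on every fetal array, was at 1.39, 0.53 and -0.25 in adult liver and at least 10.2-fold lower in fetal liver (-1.19 with normexp).

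Among probes above background on all 6 arrays, MM9LINCRNAEXON10569-_P1 had the largest fall of the lincRNA-named ones, with 3.99, 3.51 and 4.00 in fetal liver and 7.57, 7.39 and 7.43 in adult liver. Its difference was -3.63 ± 0.17 (limma adjusted p = 3.02e-06), and it stayed between -3.74 and -3.47 over 21 alternatives. The exon probes MM9LINCRNAEXON11939-_P1 (-1.97 ± 0.20) and MM9LINCRNAEXON11712+_P1 (-1.42 ± 0.25) fell less, and the latter lost its call with normexp (-0.70). mouselincRNA1468-_P1 was at -0.37, -0.34 and -0.42 in adult liver and below background in all fetal arrays, at least 5.51-fold lower. mouselincRNA1453+_P1 was likewise at least 3.89-fold lower, and mouselincRNA0303-_P1 fell by 3.45 on the log2 scale, with 1 fetal array above background (-2.17 with dim signals raised to each array's limit). These 3 were at -0.74, -0.62 and -0.63 with normexp, without a call.

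**Figure D5:**
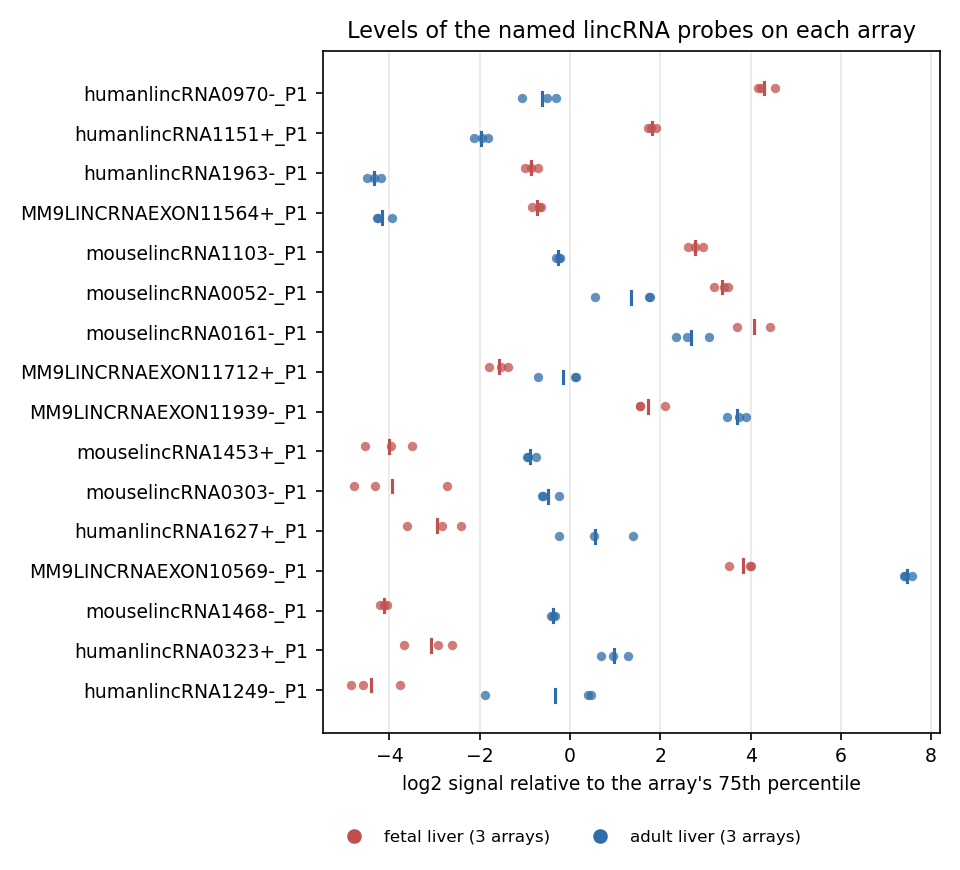
Level on each array, in log2 relative to the array's 75th percentile (x axis), of lincRNA-named probes ordered by difference (y axis). Shown are the 3 highest and 3 lowest called probes of each name class with groups apart, or fewer where fewer were called. Each array has 1 point and each group mean a tick. Levels under about -2 are near the background limit of the arrays (-3.27 to -2.09), and adult replicate 2 stands apart for humanlincRNA1249-_P1 at -1.88.

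Most lincRNA names came as a pair of probes that differ in a plus or minus sign alone. Since 19.1% of all lincRNA-named probes were tested, 1 tested probe is more frequent than 2 for unrelated probes as well. The counts of pairs are therefore a description. Of 876 such names, neither probe was tested in 586, 1 in 250 and both in 40. In 73 of the 250 the tested probe was called, 15 higher and 58 lower. Over all 351 lincRNA-named probes tested 27.9% were called, 17 higher and 81 lower, and over all tested probes 44.8%. In 61 of those 73 names the partner was above background on no array. The partner of humanlincRNA0970-_P1, for example, lay at -4.82, -5.59 and -4.87 on the fetal arrays and at -4.33, -4.27 and -4.37 on the adult arrays, under the background limit throughout. Partners in this count were untested by definition, and every probe above background on no array is untested. Over all 60915 probes 28519 were tested and 25301 (41.5%) were above background on no array. No trait of the pairs is therefore read from this count. Of the 40 names with both probes tested, 26 had none called, 9 had 1 and 5 had both.

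All 5 names with both probes called were lower in fetal liver on both, and they are named here after their values were seen. Of the 98 called lincRNA-named probes 81 were lower, so no trait of the pairs is read from this. The differences of the plus and minus probes were -1.09 and -1.10 for mouselincRNA0453, -1.74 and -1.71 for mouselincRNA0797 and -1.07 and -2.30 for humanlincRNA1050, whose plus probe had groups that overlapped. They were -3.13 and -1.54 for humanlincRNA1364 and -3.51 and -2.26 for humanlincRNA1627. The probes of the first 2 names, all above background on all 6 arrays, thus differed by little within a pair. Those of the others differed by more, but 1 probe of each was not above background on every fetal array. The size of these larger gaps is therefore not a measured difference between the probes. No name had its probes called in opposite directions, which takes at least 2-fold on both. Some pairs still moved in opposite directions with 1 probe short of 2-fold. mouselincRNA0706 was at -1.62 on the plus probe (called) and at 0.96 on the minus probe (limma adjusted p = 0.00363). humanlincRNA1016 was at -0.91 on the plus probe (limma adjusted p = 0.00201) and at 1.88 on the minus probe (called). That minus probe was at -1.76, -1.71 and -1.74 on the fetal arrays and above background on no adult array. The lowest accepted signals of the adult arrays were -2.09, -2.31 and -2.25, so the size of 1.88 is not measured on the adult side. The sources used here do not explain the sign in the names.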

How the data were processed

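Total RNA of 3 fetal and 3 adult livers was labelled with cyanine-3 and measured on 1-colour Agilent arrays. The deposited intensity values were made by the authors with Agilent Feature Extraction 11.0.1.1, per the file headers, which subtracts each spot's background and leaves arrays unscaled. The files' marks for well above background, outliers and saturation, other per-spot values deposited by the authors, were used as given. Control spots (1439) and 300 spots of 15 negative control probes were set aside. Outlier spots were left out (0.415% to 1.43%), and 0 spots were saturated. The log2 signals of a probe's spots were averaged, and each array's 75th percentile was subtracted. A probe counted as above background where at least a 0.5 share of its usable spots was marked.

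Groups were compared with limma 3.58.1 in R 4.3.3, over the 6 arrays alone, with Benjamini-Hochberg adjustment over all tested probes. A 95% interval is from the same fit. Other tools were the R package data.table (version 1.17.8), matplotlib 3.10.9 and Python 3.11.15. The 15 accessions all matched a gene symbol in the RefSeq table of GRCm38.p6. The files are built on mm9, so no coordinates are given. The fit was tested on simulated data.

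Named were all 15 genes, the 3 highest and 3 lowest called probes of each lincRNA class with groups apart, and, of probes with no gene name, 2 that rose and 2 that fell. The comparison, lists and tests were chosen with earlier results of these data known. Alternatives covered scaling, background correction (normexp on median signals, offset 50), filters, floors, variance models, blocks and leaving out each array. The liver cancer arrays were not analysed here. The number of arrays and the signal over background limit the precision.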

Additional observations from a re-analysis of the deposited data

Results flagged for a closer look

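Some control spots outside the comparison were above background on all fetal arrays and higher there than on every adult array. They were ETG05_66023, by 0.51 log2, Human-GAPDH_5, by 0.40, and Rat-GAPDH_5, by 0.29, each relative to the array's 75th percentile. Other controls above background on all 6 arrays were lower on every fetal array than on any adult array. The largest such difference was that of GE_BrightCorner (-1.31), followed by Mouse-PGK1_3 (-0.45) and Human-PGK1_3 (-0.44). The cause of these shifts was not tested. ETG05_66023 was near the background limit, and the sources used here do not explain its name. The Gapdh controls ending in 3 were at -0.30 for the human and 0.12 for the rat probe. No outlier test was run on groups of 3 arrays.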

How the results depend on the processing

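With normexp, whose offset of 50 shrinks differences of dim probes, 6095 probes were called (2969 higher, 3126 lower), 4672 of the graded ones and 27 with lincRNA names. Of the 12766 calls 6048 (47.4%) were kept in the same direction. Requiring background on all 6 arrays gave 7684 (3566 higher), with 64 lincRNA names, since fewer probes were tested, and no filter gave 194 lincRNA names. A minimum of 4-fold gave 6294 (3428 higher, 2866 lower), 2969 graded, 39 lincRNA-named and 5 of the 15 genes. Adult-only probes numbered 1136 when 1 fetal array could be above background and 1535 with 1 level for all arrays. A bound of 2-fold left 1355 fetal-only probes, and one of 4-fold 645 fetal-only and 379 adult-only. Leaving out 1 array gave 12367 to 12878 calls, 91 to 118 with lincRNA names, and 664 to 1087 adult-only probes, the highest without fetal replicate 2. Ppia turned sign under quantile normalization (0.46) and without fetal replicate 2 (0.0078; -0.17 to 0.0078 over arrays left out), and Gapdh under quantile normalization (0.18). The cause was not tested. Scalings moved the median difference of all probes by at most 0.05 log2.

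Same-numbered arrays correlated at 0.19, 0.04 and -0.10 in their deviations. Replicate 1 of each group correlated best with its own number, and replicates 2 and 3 did not. With 3 such values, whether the numbers pair the samples cannot be settled. With the replicate number as a block 12828 probes were called. Scaling to spike-ins was not run, since 2 of 22 spike-in probes were above background on all 6 arrays, and no slide block was run because the headers do not name slides. The level floored at 1 limit, the block for array position and the alternatives for the share of detected probes were chosen after seeing the data.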

Other observations

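Above the dimmest signals, calls were spread over the range of signal. When the tested probes were divided into 10 equal classes by mean level, 39.0% to 44.6% were called in all but the dimmest class, where 72.0% were called and 99.7% of probes were not above background on all 6 arrays. In the brightest class 16.9% were higher and 22.8% lower in fetal liver. Probes of the array maker's UP class, which the sources used here do not explain, had 52 higher and 30 lower of 188 tested, beside backgrounds of 24.5% and 20.3%.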
